A study of Homo sapiens with 8 samples.

Results

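HIVEP1 and HIVEP2 encode very large zinc finger transcription factors. They were described here by every probe that the platform annotation gives those gene symbols, which came to 3 probes: 1 for HIVEP1 (probe 17004879) and 2 for HIVEP2 (probes 17024335 and 17013164). These 2 genes are among 14884 named genes on the arrays, and the 3 probes are among 53617 probes in all. HIVEP1 and HIVEP2 were chosen by their log2 differences from DMSO with IPA-3 and with FRAX-597, which were high in both comparisons, so these differences are given as a description, without a test. Tests are given for the related gene HIVEP3, the comparison between solvent controls, and the genes of the pathways in which HIVEP proteins act. The choice of HIVEP1 and HIVEP2 did not use the solvent contrast, HIVEP3 or the pathway genes. It did use the DMSO arrays of the solvent comparison, and the same compound contrasts in which HIVEP3 and the pathway genes are tested. The pathway lists were chosen with earlier results of these data known.

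The cells were THP-1, an established line from a human acute monocytic leukaemia. They were exposed for 5 h to IPA-3 at 6 µg/mL (2 arrays), to FRAX-597 at 2 µg/mL (2 arrays) or to the same volume of DMSO, the solvent (4 arrays). Both compounds inhibit p21-activated kinases (PAKs), which act downstream of the small GTPases RAC and CDC42. IPA-3 binds outside the ATP site, whereas FRAX-597 competes with ATP. The study concerned PAK1 as a target in myeloid leukaemia. Total RNA was measured on 1-colour Affymetrix whole-transcript arrays, and every level below is a log2 value as deposited. Whether the duplicates of a group were separate cultures is not stated in the labels. A p-value here thus covers the spread between arrays alone, and that spread may be technical. Precision is limited by having 2 arrays a group.

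The arrays lay on 2 scales. The median over all probes ran from 5.51 to 5.55 on the IPA-3 arrays and DMSO 1 and 2, and from 6.00 to 6.05 on the FRAX-597 arrays and DMSO 3 and 4. The correlation between arrays was 0.974 or more within these sets and 0.956 or less between them. Each compound was therefore compared with the DMSO pair on the same scale. A gene is called measured here where the platform annotation names a probe for it. As 37519 probes carried no name, listed genes that are not counted may still be on the arrays. As a check of the cell type, 8 of 16 monocytic marker genes were measured. Of these, 6 (LYZ, CD68, CSF1R, SPI1, TYROBP and CSF3R) lay above the upper quartile of all probes on all 8 arrays. Of the measured markers of other cell types, 0 of 7 for T cells, 0 of 4 for B cells, 0 of 2 for erythroid cells, 0 of 4 for fibroblasts and 1 of 7 for epithelium (KRT18) did so.

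HIVEP proteins, also called ZAS proteins or Schnurri after the Drosophila homologue, carry widely separated pairs of C2H2 zinc fingers. The name HIVEP refers to binding to the kappa-B element of the HIV enhancer, the sequence to which NF-kB binds as well. In Drosophila, Schnurri works with SMAD proteins downstream of the BMP homologue Dpp. In mice, loss of the HIVEP2 homologue raises NF-kB activity in T cells. HIVEP2 was also isolated as a protein that binds an intron of MYC, and HIVEP3 is a reported partner of the NF-kB adaptor TRAF2.

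The upstream sequence of HIVEP2 is shown because this gene, on its higher-reading probe, had the highest change of all named genes with IPA-3. The set of promoters used here had no entry for HIVEP1. RefSeq (GRCh38.p14) lists 2 starts for HIVEP2 on the minus strand of chromosome 6, and the 250 bases before each are printed 5′ to 3′. Capitals mark the letters of a motif match. The first window is chr6:142945734-142945983 and the second is chr6:142945177-142945426.
HIVEP2 first start: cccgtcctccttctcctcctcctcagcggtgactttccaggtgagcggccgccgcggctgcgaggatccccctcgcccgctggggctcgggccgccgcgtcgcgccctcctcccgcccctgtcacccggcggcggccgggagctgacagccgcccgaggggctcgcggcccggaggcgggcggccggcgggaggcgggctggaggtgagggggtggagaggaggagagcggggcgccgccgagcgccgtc
HIVEP2 second start: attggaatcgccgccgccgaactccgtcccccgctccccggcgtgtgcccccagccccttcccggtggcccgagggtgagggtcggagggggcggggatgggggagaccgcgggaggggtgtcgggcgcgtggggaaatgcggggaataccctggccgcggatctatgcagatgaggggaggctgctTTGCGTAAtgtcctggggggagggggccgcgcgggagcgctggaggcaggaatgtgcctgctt

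Both windows were rich in G and C, at 80.0% for the first start and 71.6% for the second, against a median of 58.0% over 35116 listed promoters. On either strand, the kappa-B element of the HIV enhancer had 0 matches in the 2 windows, and it was found in 0.179% of all promoters. Forms of that element with 1, 2 or 3 inner bases left free, each of which takes in the stricter ones, also had no match there, and were found in 0.527%, 1.73% and 5.67% of all promoters. The letters of the MYC E-box CACGTG (6.34%), the cyclic AMP element TGACGTCA (1.65%), the AP-1 site TGANTCA (6.57%), the antioxidant element TGACNNNGC (10.9%) and the ATF4 element TGATGNAA (3.14%) were absent from these windows too. The C/EBP letters TTGCNNAA were present once in the second window, as TTGCGTAA, and in 9.05% of all promoters. These matches describe letters only.

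HIVEP2 was higher with IPA-3 on both arrays and with FRAX-597 mainly on 1. On probe 17024335, the HIVEP2 level was 9.83 and 9.86 on the IPA-3 arrays, against 7.60 and 7.52 on DMSO 1 and 2. The IPA-3 arrays lay far above their controls and close to each other. The HIVEP2 level was 10.08 on FRAX-597 array 1 and 8.18 on array 2, against 7.84 and 7.996 on DMSO 3 and 4. Both FRAX-597 arrays lay above both controls, but array 2 exceeded the higher of them by little. Means of the HIVEP2 level were 9.84 ± 0.02 with IPA-3 and 7.56 ± 0.05 in DMSO 1 and 2 (SD, n = 2 each), which is 4.86-fold (log2 difference 2.28, SE 0.50). They were 9.13 ± 1.35 with FRAX-597 and 7.92 ± 0.11 in DMSO 3 and 4 (SD, n = 2 each), or 2.32-fold (log2 difference 1.21, SE 0.50). The SE comes from limma, which takes 1 spread per gene from all 4 groups and draws it toward that of all genes. The SE of the IPA-3 value thus carries the spread of the FRAX-597 arrays. The SE of the FRAX-597 value is in turn lowered by the closer arrays of the other groups. For HIVEP2, the SD pooled over the FRAX-597 arrays and DMSO 3 and 4 was 0.95. Pooled over the IPA-3 arrays and DMSO 1 and 2, it was 0.04. Against the mean of DMSO 3 and 4, FRAX-597 array 1 alone was 4.48-fold higher and array 2 alone 1.20-fold.

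HIVEP1 was higher on every compound array. On probe 17004879, the HIVEP1 level was 8.35 and 8.32 on the IPA-3 arrays, against 7.08 and 7.20 on DMSO 1 and 2. It was 9.90 and 9.27 on the FRAX-597 arrays, against 7.97 and 7.82 on DMSO 3 and 4. In neither set did the compound arrays overlap their controls. Means of the HIVEP1 level were 8.34 ± 0.03 with IPA-3 and 7.14 ± 0.08 in DMSO 1 and 2 (SD, n = 2 each), or 2.29-fold (log2 difference 1.20, SE 0.20). They were 9.59 ± 0.44 with FRAX-597 and 7.89 ± 0.11 in DMSO 3 and 4 (SD, n = 2 each), or 3.23-fold (log2 difference 1.69, SE 0.20). The SE is shared over the groups here too. The SD of HIVEP1 pooled over the FRAX-597 arrays and DMSO 3 and 4 was 0.32, and over the IPA-3 arrays and DMSO 1 and 2 it was 0.06.

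**Figure D1:**
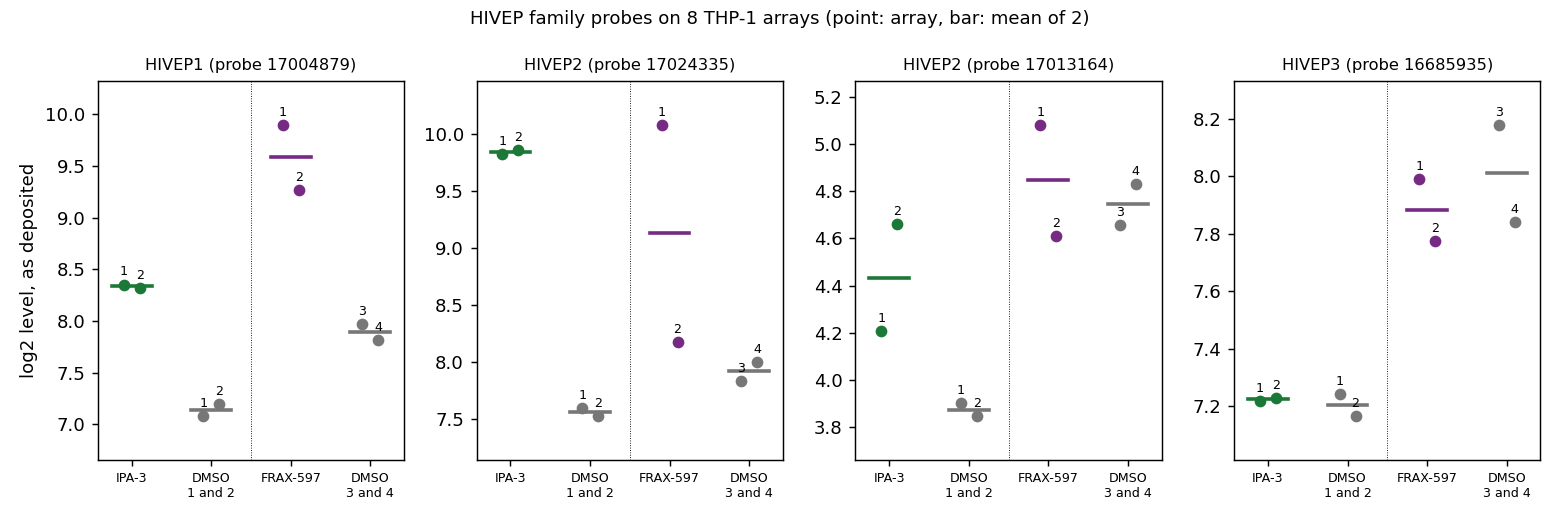
Deposited log2 levels (vertical axes, each with its own range) of the HIVEP1 probe, both HIVEP2 probes and the HIVEP3 probe in each compound group and its own DMSO pair, where points are arrays numbered by replicate, bars are means of 2 arrays, and the dotted line parts the 2 array sets. HIVEP1 lies above its controls on all compound arrays, HIVEP2 probe 17024335 reads 10.08 on FRAX-597 array 1 and 8.18 on array 2, and HIVEP3 overlaps its controls in both sets.

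Among 14884 genes ordered by change, HIVEP2 ranked 1 with IPA-3 and 51 with FRAX-597, and HIVEP1 ranked 26 and 19. The next gene after HIVEP2 with IPA-3 was CXCL8, the neutrophil chemokine interleukin-8, with a log2 difference of 2.16. The median change over all genes was -0.02 with either compound. A gene whose compound arrays both lay above both own DMSO arrays was common, at 19.3% of all genes for IPA-3, 13% for FRAX-597 and 3.16% for both compounds, and HIVEP1 and HIVEP2 were 2 such genes. A log2 difference above 1 with both compounds was found for 10 genes (0.0672%), again including HIVEP1 and HIVEP2. The other 8, chosen after their values were seen, were CXCL8, DUSP4, ENPP2, ICAM1, IL7R, LINC00622, TREM1 and ULBP1. DUSP4 encodes a phosphatase of MAP kinases, ENPP2 the lysophospholipase autotaxin, ICAM1 an adhesion molecule, IL7R the interleukin-7 receptor alpha chain, TREM1 an activating receptor of myeloid cells and ULBP1 a ligand of the receptor NKG2D. These shares and ranks rest on the same differences by which HIVEP1 and HIVEP2 were chosen.

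**Figure D2:**
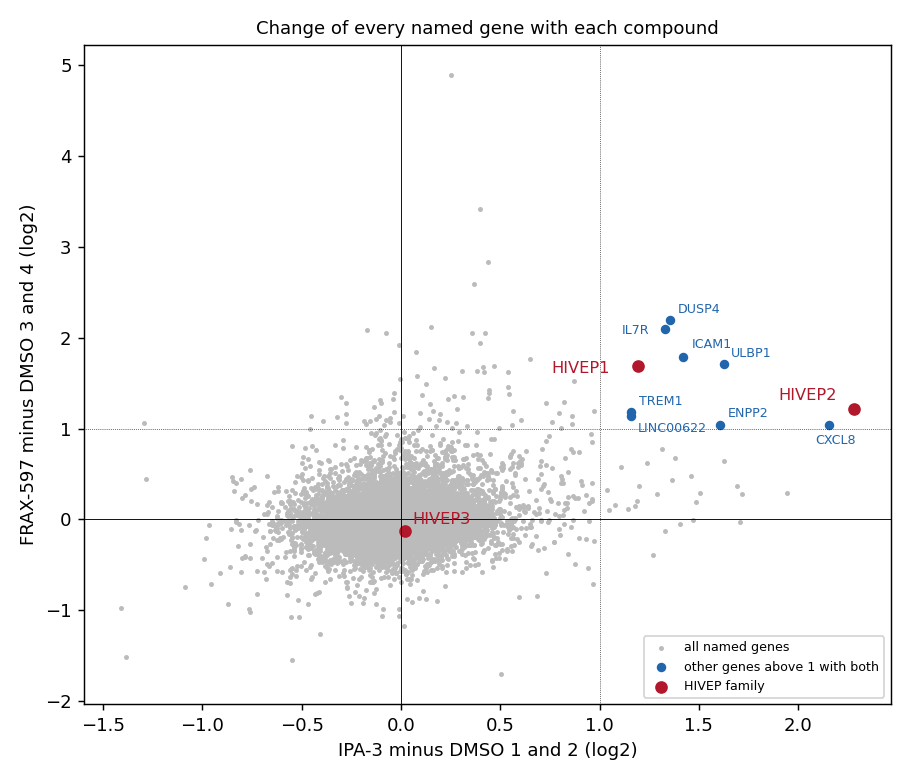
Log2 difference of every named gene with IPA-3 (horizontal axis) and with FRAX-597 (vertical axis), each against its own DMSO pair, where grey points are genes, red points the HIVEP family, blue points the other 8 genes above 1 on both axes and dotted lines mark 1. HIVEP2 stands farthest right at 2.28, HIVEP1 lies at 1.20 and 1.69, and HIVEP3 sits within the bulk of genes.

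The second HIVEP2 probe, 17013164, gave low readings and smaller differences. Its level was 4.21 and 4.66 on the IPA-3 arrays, against 3.90 and 3.85 on DMSO 1 and 2. It was 5.08 and 4.61 on the FRAX-597 arrays, against 4.66 and 4.83 on DMSO 3 and 4. The IPA-3 arrays lay above their controls, and the FRAX-597 arrays overlapped theirs. The log2 difference of this HIVEP2 probe was 0.56 (SE 0.20) with IPA-3 and 0.10 (SE 0.20) with FRAX-597. The readings on DMSO 1 and 2 lay under the lower quartile of all probes on those arrays (4.15 and 4.14). The reading of 4.61 on FRAX-597 array 2 also lay under that of its array (4.70). The other readings lay above it (4.16 and 4.20 on the IPA-3 arrays, 4.64 and 4.73 on DMSO 3 and 4, 4.64 on FRAX-597 array 1). All readings lay under the median of their array. A quartile is not a measure of background, so whether this probe reads above background is not known. Where in the gene either probe lies was not analysed here.

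The split of HIVEP2 between the FRAX-597 arrays was large for a pair of duplicates. FRAX-597 1 minus FRAX-597 2 was 1.90 for HIVEP2, which ranked 71 of 14884 genes by size, and 0.63 for HIVEP1, which ranked 1301. The median size of that difference over all genes was 0.19. DMSO 3 minus DMSO 4 was -0.16 for HIVEP2 and 0.15 for HIVEP1, near the median size of 0.17. IPA-3 1 minus IPA-3 2 was -0.03 for HIVEP2 and 0.04 for HIVEP1. Lists of NF-kB genes also read higher on FRAX-597 array 1 than on array 2: the median of FRAX-597 1 minus FRAX-597 2 was 1.64 over 5 NF-kB subunit genes and 1.43 over 22 NF-kB target genes, and the median of DMSO 3 minus DMSO 4 was 0.47 and 0.42. What separated the FRAX-597 arrays, and its part in the HIVEP2 value, was not tested.

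Levels across all groups were set on one scale by subtracting each array's median over all probes. On that scale HIVEP1 averaged 3.56 ± 0.47 with FRAX-597, 2.80 ± 0.04 with IPA-3, 1.86 ± 0.12 in DMSO 3 and 4 and 1.63 ± 0.09 in DMSO 1 and 2 (SD, n = 2 each). HIVEP2 on probe 17024335 averaged 4.30 ± 0.01 with IPA-3, 3.11 ± 1.37 with FRAX-597, 1.88 ± 0.10 in DMSO 3 and 4 and 2.05 ± 0.05 in DMSO 1 and 2 (SD, n = 2 each). The gap between IPA-3 and FRAX-597 for HIVEP2 was smaller than the SD of the FRAX-597 arrays.

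The DMSO pairs were compared by a test, since the choice of genes did not use this contrast, although it used these arrays. With arrays centred on their medians, 30.3% of 14884 genes passed a limma adjusted p under 0.05 between DMSO 3 and 4 and DMSO 1 and 2, and 0 of the 3 HIVEP genes did. DMSO 3 and 4 minus DMSO 1 and 2 was 0.23 for HIVEP1 (SE 0.21; limma adjusted p = 0.431) and -0.17 for HIVEP2 (SE 0.51; limma adjusted p = 0.824). It was 0.28 for HIVEP3 (SE 0.15; limma adjusted p = 0.197). Without centring, the differences were 0.75 for HIVEP1, 0.35 for HIVEP2 and 0.81 for HIVEP3, with a median over all genes of 0.48, and HIVEP1 and HIVEP3 then passed (limma adjusted p = 0.013 and 0.00288). The sign of HIVEP2 thus depended on the scale. The SE takes in the compound arrays as well, and for HIVEP2 mainly the split between the FRAX-597 arrays. Not passing here does not show that a gene was equal in the DMSO pairs.

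HIVEP3, the third gene of the family, was not shown to change with either compound. Its level on probe 16685935 was 7.22 and 7.23 on the IPA-3 arrays, against 7.24 and 7.17 on DMSO 1 and 2. It was 7.99 and 7.78 on the FRAX-597 arrays, against 8.18 and 7.84 on DMSO 3 and 4. The arrays overlapped in both sets. The log2 difference of HIVEP3 was 0.02 (SE 0.14; limma adjusted p = 0.998) with IPA-3 and -0.13 (SE 0.14; limma adjusted p = 0.95) with FRAX-597.

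The genes that lie nearest to HIVEP1 and HIVEP2 on chromosome 6 did not pass the test. Around HIVEP1 the 2 measured genes on each side, in the gene order of GRCh38.p14, were TMEM170B, ADTRP, EDN1 and PHACTR1. ADTRP, which regulates tissue factor pathway inhibitor, had log2 differences of 0.40 (SE 0.16; limma adjusted p = 0.679) with IPA-3 and 0.56 (SE 0.16; limma adjusted p = 0.407) with FRAX-597. EDN1, the vasoconstrictor peptide endothelin, had -0.04 and -0.21. Around HIVEP2, ADGRG6, LOC153910, LINC01277 and AIG1 had differences from -0.22 to 0.17 with IPA-3 and from -0.22 to 0.08 with FRAX-597.

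Genes with the profile most like that of HIVEP1 or HIVEP2 were ranked by Pearson's r over the 8 arrays, on levels minus the mean of the own DMSO pair. The ranking took in 9010 other protein-coding genes at or above the median level over all probes. For HIVEP1 the highest were IL7R (r = 0.994), CLIC4, RGPD6, RASSF8, CEP120 and STK40 (r = 0.979). IL7R deviated by 1.39 and 1.27 on the IPA-3 arrays and by 2.51 and 1.69 on the FRAX-597 arrays, against 1.21, 1.18, 2.01 and 1.38 for HIVEP1. The log2 differences of IL7R were 1.33 with IPA-3 and 2.10 with FRAX-597 (SE 0.25), given without a test because the likeness to HIVEP1 on these arrays chose the gene. The others had smaller differences, from 0.14 to 0.34 for IPA-3 and from 0.21 to 0.61 for FRAX-597. RGPD6 has near-identical gene copies, so its reading is uncertain.

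For HIVEP2 the genes of highest r were CLIP1 (r = 0.997), EID3, BEND6, UBE2H, RIT1 and SETD5 (r = 0.976). CLIP1 encodes a microtubule plus-end protein, UBE2H a ubiquitin-conjugating enzyme and RIT1 a RAS-like GTPase. All 6 shared with HIVEP2 a higher level on FRAX-597 array 1 than on array 2, which the ranking by r over these same arrays selects for. EID3, which encodes an inhibitor of the coactivator EP300, deviated by 1.34 and 1.42 on the IPA-3 arrays and by 1.17 and 0.18 on the FRAX-597 arrays. RIT1 deviated by 1.40 and 1.23, and by 1.15 and 0.39. HIVEP1 and HIVEP2 correlated with each other at r = 0.786 over the 8 arrays, which put HIVEP1 at place 222 of 9010 for HIVEP2 and HIVEP2 at place 262 for HIVEP1. These correlations describe 8 arrays with shared control means and carry no test. With each array left out in turn, IL7R stayed among the 6 for HIVEP1 in 8 of 8 cases and STK40 in 1, and CLIP1 and EID3 stayed among the 6 for HIVEP2 in 8 of 8 and SETD5 in 2. With likeness measured by the root mean square difference instead of r, only IL7R stayed of the 6 for HIVEP1, and 2 of the 6 for HIVEP2, EID3 and RIT1, so CLIP1 dropped out.

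**Figure D3:**
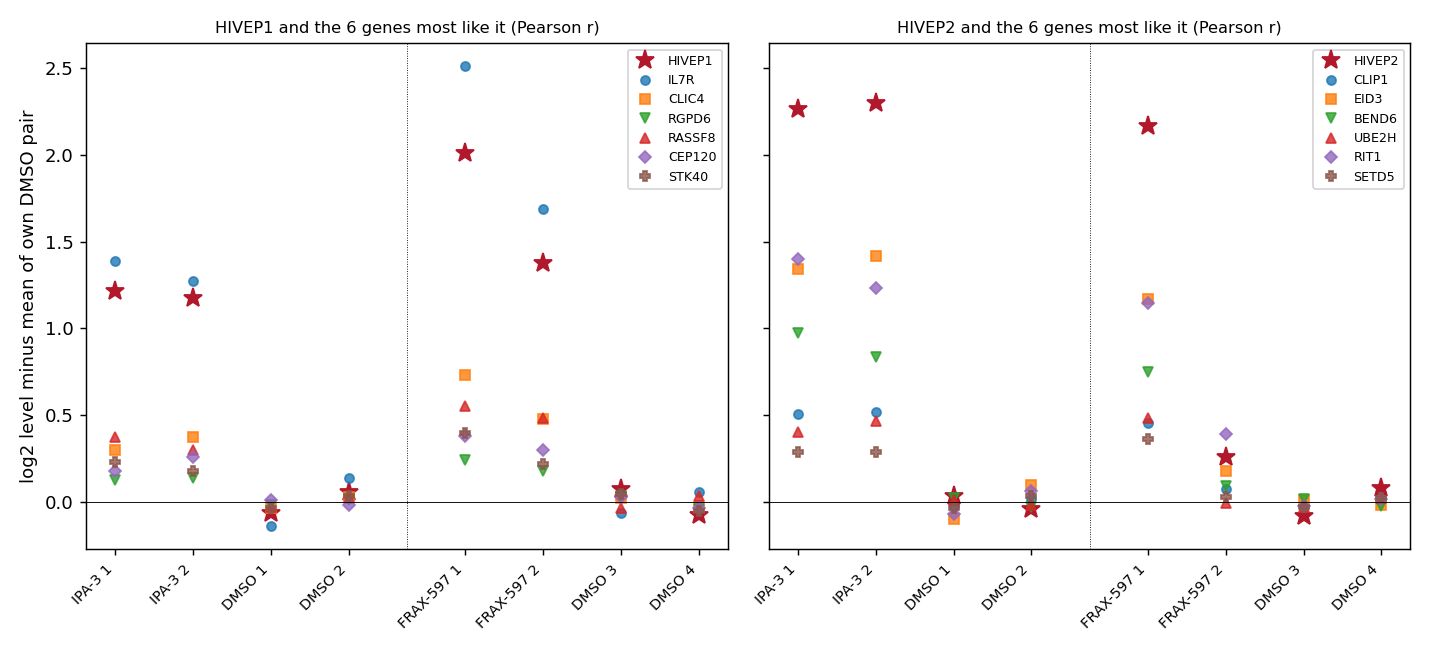
Log2 level minus the mean of the own DMSO pair (vertical axis) on each array (horizontal axis, compound arrays left of their DMSO pair) for HIVEP1 with its 6 most similar genes (left) and HIVEP2 with its 6 (right), where stars are HIVEP1 or HIVEP2 and other symbols the named genes. HIVEP1 stays above 1 on all 4 compound arrays, whereas HIVEP2 drops to 0.26 on FRAX-597 array 2. The genes chosen for likeness to HIVEP2 on these arrays are also lower there than on array 1.

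The pathways of HIVEP proteins were read from lists of 229 genes, of which 147 were measured. A limma adjusted p under 0.05 over all 14884 genes was reached by 5 genes for IPA-3 (0.0336%; 0.0269% higher and 0.00672% lower) and by 23 for FRAX-597 (0.155%; 0.121% higher and 0.0336% lower). Of the 147 list genes, 0 passed for IPA-3 and 1 for FRAX-597, which was MALT1. The SE of an IPA-3 difference carries the spread of the FRAX-597 arrays for these genes too. A list gene that did not pass with IPA-3 is thus not shown to be unchanged. With the 4 arrays of each set alone, 8 list genes passed for IPA-3, against 96 of all 14884 genes. For FRAX-597, 0 genes passed in that way. At an unadjusted p under 0.05 from limma, 2 list genes were higher and 6 lower with IPA-3, against 3.1% higher and 4.11% lower of all genes. With FRAX-597, 17 were higher and 6 lower, against 4.04% and 3.61% of all genes.

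Of 11 measured receptors that activate NF-kB, 0 passed with either compound, and the medians were -0.08 with IPA-3 and 0.11 with FRAX-597. With IPA-3, TLR1, TLR2 and TLR4, receptors for bacterial lipopeptides and lipopolysaccharide, had log2 differences of -0.37, -0.55 and -0.46 (limma adjusted p from 0.646 to 0.756). LY96, the coreceptor of TLR4, read 7.12 and 5.21 on the FRAX-597 arrays, against 5.76 and 4.39 on DMSO 3 and 4.

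Among 24 measured kinases and adaptors of NF-kB, MALT1 rose with FRAX-597. MALT1 is the paracaspase of the CARD-BCL10-MALT1 complex. Its level was 9.31 and 9.09 on the FRAX-597 arrays, against 7.96 and 7.78 on DMSO 3 and 4. The FRAX-597 arrays lay well above both controls (log2 difference 1.33, SE 0.14; limma adjusted p = 0.029). The difference ranged from 1.22 to 1.44 over the alternatives, but the call was lost in 10 of them. The adjusted p was 0.769 with the 4 arrays of its own set alone, 0.0544 with the DMSO arrays pooled, 0.093 with every probe as a feature, 0.121 without DMSO 3, 0.146 without DMSO 4, 0.078 without FRAX-597 1, 0.133 without either of DMSO 1 and 2 and 0.126 without either IPA-3 array. With IPA-3, MALT1 had a difference of 0.24 (SE 0.14; limma adjusted p = 0.763). IRAK2, a kinase adaptor of interleukin-1 and Toll-like receptors, lay next to HIVEP1 in the order of FRAX-597 changes and is named for that. It read 9.81 and 7.06 on the FRAX-597 arrays, against 6.90 and 6.59 on DMSO 3 and 4 (log2 difference 1.69, SE 0.72; limma adjusted p = 0.651). TRAF3, which restrains noncanonical NF-kB signalling, had a difference of 0.88 with IPA-3 (SE 0.39; limma adjusted p = 0.695). The list's medians were 0.02 for IPA-3 and 0.06 for FRAX-597.

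Of the 5 NF-kB subunit genes 0 passed, while their medians lay above that of all genes, at 0.71 with IPA-3 and 0.86 with FRAX-597. NFKB2, the p100 precursor, read 7.84 and 7.55 on the IPA-3 arrays, against 6.99 and 6.81 on DMSO 1 and 2. It read 10.41 and 7.97 on the FRAX-597 arrays, against 8.25 and 7.78 on DMSO 3 and 4. As for HIVEP2, FRAX-597 array 1 stood far above array 2, and the IPA-3 arrays lay closer to each other than the FRAX-597 arrays did. RELB had a log2 difference of 0.73 with IPA-3 and 0.86 with FRAX-597 (SE 0.46; limma adjusted p = 0.773 and 0.778). NFKB1 had 0.71 and 0.78 (SE 0.63; limma adjusted p = 0.861 and 0.891). REL had 0.08 with IPA-3 and 0.88 with FRAX-597 (SE 0.27; limma adjusted p = 0.985 and 0.443). RELA, the transactivating p65 subunit, stood at 0.09 and -0.01.

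Of 16 listed inhibitors of NF-kB, 9 were measured and 0 passed. The medians of the 9 were 0.12 with IPA-3 and 0.40 with FRAX-597. NFKBIA and TNFAIP3 were among the listed inhibitors without a named probe. BCL3, a nuclear member of the I-kappa-B family, read 9.62 and 9.07 on the FRAX-597 arrays, against 8.14 and 7.84 on DMSO 3 and 4. The groups did not overlap, but the difference of 1.36 missed the threshold (SE 0.19; limma adjusted p = 0.0671). TNIP3, a binding partner of the deubiquitinase A20, had a difference of 0.73 with IPA-3 (SE 0.30; limma adjusted p = 0.675), from low readings of 3.74 and 3.84 in DMSO 1 and 2.

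Of 22 measured NF-kB target genes 0 passed with either compound, and 19 were above 0 with IPA-3 and 19 with FRAX-597, against 44.4% and 45.3% of all genes, and the medians were 0.41 and 0.67. Both IPA-3 arrays lay above both controls for 18 of 22, against 19.3% of all genes, and both FRAX-597 arrays for 4 of 22, against 13%, which is near the share of all genes. CXCL8 read 8.29 and 8.35 on the IPA-3 arrays, against 6.00 and 6.33 on DMSO 1 and 2 (log2 difference 2.16, SE 1.35; limma adjusted p = 0.773). On the FRAX-597 arrays CXCL8 read 10.06 and 4.89, against 6.66 and 6.20 on DMSO 3 and 4. That split enters the SE of the IPA-3 difference of CXCL8 as well. ICAM1 read 6.38 and 6.26 on the IPA-3 arrays, against 4.77 and 5.02 on DMSO 1 and 2. It read 10.64 and 6.60 on the FRAX-597 arrays, against 7.47 and 6.19 on DMSO 3 and 4. CCL20, a chemokine for CCR6, had differences of 0.87 with IPA-3 (SE 0.38; limma adjusted p = 0.695) and 1.52 with FRAX-597 (SE 0.38; limma adjusted p = 0.313).

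The TGF-beta and BMP pathway showed 0 calls with either compound. Of 8 measured ligands the medians were 0.01 with IPA-3 and -0.10 with FRAX-597, and only 2 of 13 listed receptors, ACVRL1 and ENG, had a named probe. Of 18 measured SMADs and SMAD regulators the medians were 0.02 and -0.03. SKIL, which represses SMAD complexes, read 9.54 and 9.76 on the IPA-3 arrays, against 9.22 and 9.18 on DMSO 1 and 2. SKIL read 9.45 and 9.27 on the FRAX-597 arrays, against 8.82 and 9.01 on DMSO 3 and 4. Its differences of 0.44 and 0.45 (SE 0.13) did not pass (limma adjusted p = 0.552 and 0.407). ZEB2, a zinc finger repressor that binds SMADs, had -0.51 with FRAX-597 (SE 0.15; limma adjusted p = 0.385), and the inhibitory SMAD7 had -0.24 (SE 0.10; limma adjusted p = 0.638). SMAD target genes had medians of 0.03 with IPA-3 and 0.43 with FRAX-597 over 8 measured. Both compound arrays lay above both controls for 4 of 8 with either compound, against 19.3% and 13% of all genes, and below for 0. CCN2 was highest, at 0.55 with IPA-3 and 0.72 with FRAX-597 (SE 0.25; limma adjusted p = 0.697 and 0.513). With FRAX-597, KLF10 had 0.59 (SE 0.22; limma adjusted p = 0.574) and KLF11 had 0.61 (SE 0.20; limma adjusted p = 0.495).

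Genes reported to be bound or partnered by HIVEP proteins were 18, of which 9 were measured and 0 passed. MYC, whose intron HIVEP2 binds, read 8.56 and 8.50 on the IPA-3 arrays, against 8.72 and 8.70 on DMSO 1 and 2. MYC read 7.43 and 7.85 on the FRAX-597 arrays, against 8.51 and 8.51 on DMSO 3 and 4. In both sets the compound arrays lay below the controls, as did 28.3% and 17.8% of all genes, and the log2 differences were -0.18 (SE 0.15; limma adjusted p = 0.84) and -0.87 (SE 0.15; limma adjusted p = 0.132). The somatostatin receptor gene SSTR2, another target reported for HIVEP2, had -0.15 with either compound. RUNX2, whose protein Schnurri-type factors bind in mouse bone, had -0.15 with IPA-3 and 0.20 with FRAX-597.

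Of 34 measured genes of other large or regulatory C2H2 zinc finger factors 0 passed, and the medians were -0.05 with IPA-3 and 0.03 with FRAX-597. Of the 34, 12 lay above 0 with IPA-3 and 18 with FRAX-597, against 44.4% and 45.3% of all genes. Both compound arrays lay below both controls for 11 of 34 with IPA-3, against 28.3% of all genes, and for 6 of 34 with FRAX-597, against 17.8%. These counts are near the shares of all genes. Both compound arrays lay above both controls for 6 of 34 with IPA-3, against 19.3% of all genes, and for 8 of 34 with FRAX-597, against 13%. The highest difference was 0.54 with IPA-3 (ZEB1) and 0.89 with FRAX-597 (BCL6, a repressor of lymphocyte and inflammatory genes). EGR1, an immediate early factor of growth factor signalling, read 8.41 and 8.33 on the IPA-3 arrays, against 9.33 and 9.32 on DMSO 1 and 2. EGR1 read 8.68 and 9.15 on the FRAX-597 arrays, against 9.58 and 9.66 on DMSO 3 and 4. The differences of -0.96 and -0.70 (SE 0.16) did not pass (limma adjusted p = 0.256 and 0.241).

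**Figure D4:**
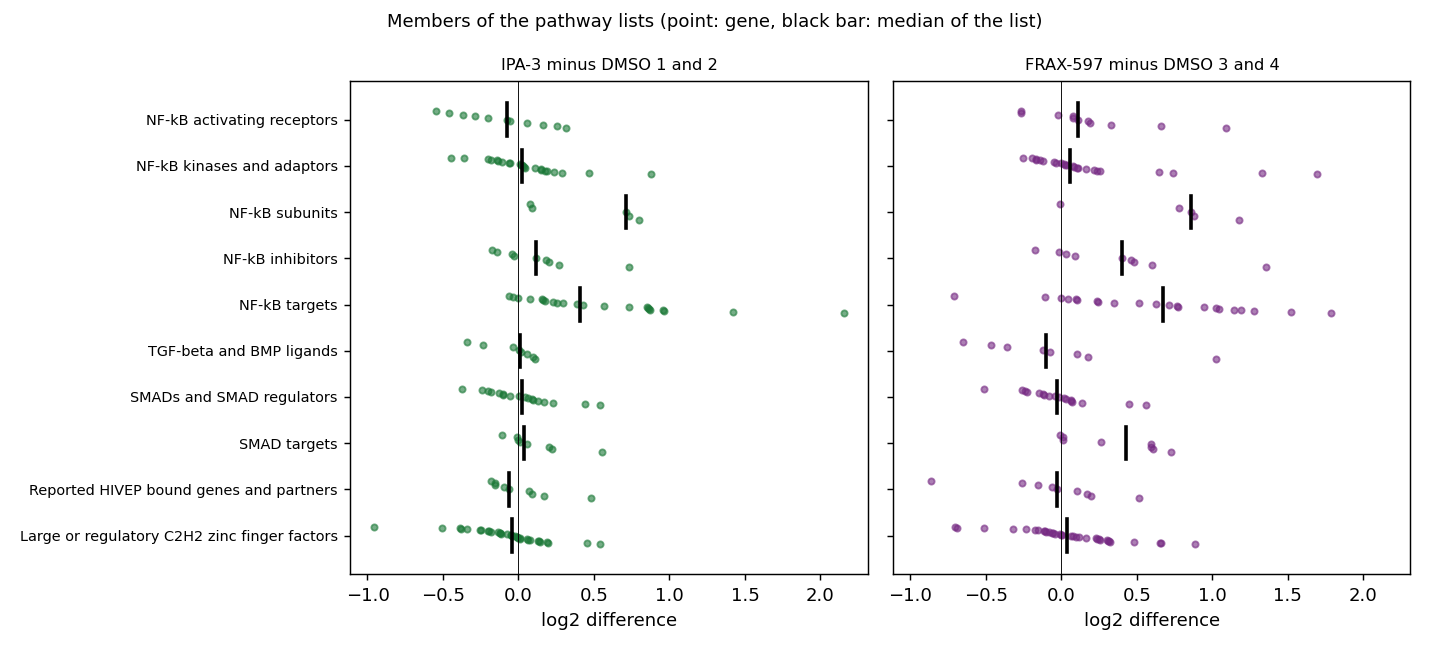
Log2 difference (horizontal axes) of each measured gene of 10 lists (rows) with IPA-3 (left) and FRAX-597 (right) against the own DMSO pair, where points are genes and black bars list medians. The NF-kB subunit medians stand at 0.71 and 0.86 and the target medians at 0.41 and 0.67, while the medians of SMADs and of C2H2 zinc finger genes lie within 0.05 of 0.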

How the data were processed

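The authors deposited a log2 expression value for each of 53617 probes on 8 arrays, made with Affymetrix Expression Console and Transcriptome Analysis Console, per the submitters' processing notes. Versions, the summarisation and normalization method and the array's genome build are not given in the sources used here, and background correction could not be varied. The platform annotation named 16098 probes with 1 gene each and 0 with several, while 37519 carried no name. All 16098 gene identifiers matched RefSeq for GRCh38.p14. For 779 genes with over 1 probe, the probe of highest mean was used, leaving 14884 genes. The fit over all of them used limma (version 3.58.1, R 4.3.3), with 4 groups of 2 arrays: IPA-3, FRAX-597, DMSO 1 and 2, DMSO 3 and 4. Calls took a Benjamini-Hochberg adjusted p under 0.05. The fit was tested on simulated data. No label pairs compound and DMSO arrays. The genes, lists, motifs and pairings were chosen with earlier results of these data known.

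Named list genes were the called members and up to 3 per list and compound by smallest p, or 6 for subunits, inhibitors, SMADs and bound genes. Some of them are described, and IRAK2, CXCL8, ICAM1 and BCL6 were named after their values were seen.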

Additional observations from a re-analysis of the deposited data

How the results depend on the processing

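With the 4 DMSO arrays pooled, HIVEP1 stood at 0.82 for IPA-3 and 2.07 for FRAX-597, and HIVEP2 at 2.10 for IPA-3; quantile normalization gave 2.21 and the mean of both probes 1.42 for HIVEP2 with IPA-3. HIVEP2 with FRAX-597 was 0.66 by the mean of both probes. With an array left out, the ranges were 1.14 to 1.25 (HIVEP1, IPA-3), 1.38 to 2.01 (HIVEP1, FRAX-597), 2.24 to 2.32 (HIVEP2, IPA-3) and 0.26 to 2.16 (HIVEP2, FRAX-597), the last being 0.26 without FRAX-597 1 and 2.16 without FRAX-597 2. These HIVEP1 and HIVEP2 differences kept their sign in every alternative. HIVEP3, not called, did not: it read -0.38 with IPA-3 and 0.28 with FRAX-597 with DMSO pooled, -0.02 with IPA-3 without DMSO 2, and 0.04 with FRAX-597 without DMSO 3, and for IPA-3 also turned, near 0, with arrays centred.

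Genes called for IPA-3, 5 in the main analysis, numbered 0 with pooled DMSO (843 at an unadjusted p under 0.05 in limma) or every probe as a feature (3416), 2 after quantile normalization or with genes at or above the median level, 96 with its own 4 arrays alone, and 0 to 24 with an array left out. For FRAX-597, 23 became 5 with pooled DMSO, 0 with its own 4 arrays alone (606 at an unadjusted p under 0.05 in limma), 6 with every probe as a feature, and 2 to 227 with an array left out, the 227 without FRAX-597 2. List members called for IPA-3, 0 in the main analysis, were 8 with its own 4 arrays alone and 0 to 2 with an array left out. For FRAX-597, 1 became 0 with pooled DMSO, with its own 4 arrays or with every probe as a feature, and 0 to 30 with an array left out, the 30 without FRAX-597 2. The replicate block, with pairs taken from earlier results and not from labels, gave 72 genes for IPA-3 and 202 for FRAX-597, and 1 and 10 list members. Without centring, the DMSO contrast was 0.75 for HIVEP1 and 0.81 for HIVEP3, both called; with an array left out it ran from 0.14 to 0.31, from 0.10 to 0.46 and, for HIVEP2, from -0.24 to -0.10. The causes were not tested.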
